A study of Mus musculus with 4 samples.

Results

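The collagen, laminin and integrin genes of the mouse were followed in cardiac endothelium, the cells that line the vessels of the heart, after exposure of the animals to lipopolysaccharide (LPS), the endotoxin of Gram-negative bacteria. Members were all genes whose annotated symbol named a collagen alpha chain, a laminin chain or an integrin chain, and symbols of integrin beta binding proteins were left out. This gave 67 of the 11138 named genes on the arrays, 37 collagens, 10 laminins and 20 integrins. At 4 h and 24 h after intraperitoneal injection, amplified RNA of mice given LPS was hybridised against that of mice given saline, on 2 arrays per time with the dyes reversed. The sources used here give no strain, genotype, age, sex, LPS dose, number of animals, pooling or isolation method. No separate extracts were named for the reversed array, so the 2 arrays of a time were counted as 1 replicate, and calls rest on a fold rule. A test between LPS and saline was made only in an alternative fit that took the arrays as separate samples.

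Collagens and laminins are trimeric matrix proteins. Type IV collagen and the laminins each form a network in the basement membrane, the sheet on which endothelial cells rest. Integrins are receptors of an alpha and a beta chain that anchor cells to these proteins or, on leukocytes, bind ligands on the endothelial surface. In vessels, basement membrane composition and integrin use are known to bear on barrier function and on the passage of leukocytes.

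All values are log2 ratios of LPS over saline, so 1 unit is 2-fold and 0 is no difference. The orientation of the deposited ratios was not stated, and Cy5 over Cy3 was assumed. Values of the array with LPS in Cy3 (array 2) had their sign turned. The direction is therefore likely and not certain. Under the opposite orientation all signs below reverse. If the table had already been turned alike, 0 members would be called at either time. A gene was called higher or lower where both arrays of a time were at least 2-fold from 0 on the same side, and each ± is the SD between them (n = 2 arrays), which holds no spread between animals. Since the arrays held ratios and no levels, the presence of endothelial markers in the RNA could not be checked. In such RNA, fewer cells of a type and less RNA per cell cannot be told apart.

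At 24 h the main type IV collagen chains of vessels, encoded by Col4a1 and Col4a2, were both higher, 3.85-fold and 2.89-fold, while Col18a1, whose product is the source of endostatin, was 4.88-fold lower. The alpha5 integrin chain Itga5, the fibronectin receptor subunit, was 2.47-fold lower. The call of Itga5 was lost with quantile and with scale normalization, which left 2 and 1 members lower in place of 4. At 4 h no member was called, 0 of 67, where 3.25% of all named genes were called, 2.25% higher and 0.997% lower. At 24 h 6 members were called, 2 higher and 4 lower. That is 8.96% of the members, near the 7.00% called over all genes, of which 3.48% were higher and 3.52% lower. The number of calls is thus close to the background. In opposite directions, 2-fold on both arrays, stood 0 members at each time, where 1.42% of all genes did so at 4 h and 3.69% at 24 h.

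Col4a1 and Col4a2 lie head to head, and their promoter windows are shown because both genes were called higher. In RefSeq (GRCm38.p6) their annotated starts are 21 bases apart on opposite strands of chromosome 8. Col4a2 starts at 11312805 on the plus strand and Col4a1 at 11312826 on the minus strand, so the annotated genes overlap at their 5′ ends. The parts of the windows before the starts do not overlap each other. The windows, 250 bases before to 50 after each start, share 78 bases, which stand in capitals and are the reverse complement of each other. These 78 bases are made up of the 50 bases after each start and are not a shared upstream stretch. The Col4a1 window is chr8:11312777-11313076 on the minus strand and the Col4a2 window chr8:11312555-11312854 on the plus strand, each written 5′ to 3′ along its gene.
Col4a1: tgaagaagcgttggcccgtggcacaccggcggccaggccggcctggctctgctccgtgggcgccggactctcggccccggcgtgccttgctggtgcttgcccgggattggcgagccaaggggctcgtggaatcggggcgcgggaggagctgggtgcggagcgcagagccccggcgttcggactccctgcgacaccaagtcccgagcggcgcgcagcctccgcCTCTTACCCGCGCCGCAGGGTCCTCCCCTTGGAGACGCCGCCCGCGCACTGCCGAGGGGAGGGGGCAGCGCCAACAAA
Col4a2: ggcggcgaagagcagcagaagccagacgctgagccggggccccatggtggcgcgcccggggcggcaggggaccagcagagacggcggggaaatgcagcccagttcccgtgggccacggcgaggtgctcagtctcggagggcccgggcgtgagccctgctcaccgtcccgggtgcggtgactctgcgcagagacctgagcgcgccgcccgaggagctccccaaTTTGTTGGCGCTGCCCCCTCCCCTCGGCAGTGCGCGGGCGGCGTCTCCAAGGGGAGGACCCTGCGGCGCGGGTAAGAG
G and C made up 74.0% of the first and 73.7% of the second window. The letters of a GC box (GGGCGG, either strand) occurred in the shared bases, 9 bases after the Col4a1 start and 7 after the Col4a2 start. Of the 32851 windows in the table, 35.7% hold these letters. A CCAAT motif (CCAAT, either strand) occurred in each window, against 37.4% of all windows. TATAAA, found in 13.6% of all windows, was in neither. These matches describe the letters and not a bound site. The genes of the chains alpha5 and alpha6, Col4a5 and Col4a6, are also head to head on chromosome X. Their starts lie 1343 bases apart without overlap, unlike those of Col4a1 and Col4a2, and their windows share no bases.

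Col4a1 encodes the alpha1 chain of type IV collagen. It stood at 1.65 and 0.74 on arrays 1 and 2 of 4 h and at 2.13 and 1.76 on those of 24 h. All 4 arrays lay above 0, and only the second array of 4 h was under 2-fold. The means were 1.20 ± 0.64 and 1.95 ± 0.26. Col4a2, the alpha2 chain that joins alpha1 chains in a trimer, stood at 0.78 and 1.00 at 4 h and at 1.45 and 1.62 at 24 h. Its means were 0.89 ± 0.15 and 1.53 ± 0.12. Both arrays of 24 h lay above both of 4 h for each of these genes, but the means differed by 0.75 and 0.64, under the 2-fold set as the criterion between times. The single spots of 24 h, before centring, were also all beyond 2-fold. The 4 spot values of Col4a1 at 24 h ran from 1.54 to 2.32 and those of Col4a2 from 1.17 to 1.75. The median over all named genes was -0.02 at both times.

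The other type IV chains, found in specialised basement membranes such as that of the kidney glomerulus, were not called. Col4a3 stood at -0.21 ± 0.16 at 4 h and -0.20 ± 0.39 at 24 h, and Col4a6 at 0.31 ± 0.47 and -0.16 ± 0.18. Col4a4 was at 0.54 and 0.23 on the arrays of 4 h and at -0.09 and -1.51 on those of 24 h. Col4a5 was at -0.24 and -0.91 and then at 0.001 and 1.85. Its duplicate spots on the second array of 24 h read -0.20 and 4.04, so the mean there rests on 1 spot. None of these chains had both arrays of a time beyond 2-fold.

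Collagens XV and XVIII, proteoglycans of the basement membrane zone, went apart. Col18a1 stood at -1.15 and -0.57 at 4 h and at -2.87 and -1.70 at 24 h. All 4 arrays lay below 0 and those of 24 h below those of 4 h. Its means were -0.86 ± 0.41 and -2.29 ± 0.82, and its 4 spot values at 24 h ran from -2.98 to -1.56. Col15a1 stood at 0.64 and 0.51 at 4 h and at 1.43 and 0.69 at 24 h, above 0 on all 4 arrays. With a mean of 1.06 ± 0.52 at 24 h it was not called, and its 2 spots on the first array of 24 h differed, at 0.40 and 2.41. Col15a1 and Col18a1 belong to the same family of multiplexins.

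Endothelial markers were read beside these genes, as the endothelium itself makes type IV collagen. Of 11 markers measured, 3 were called at 4 h, Cldn5 higher at 1.29 ± 0.10 and Kdr and Eng lower at -1.89 ± 0.75 and -1.87 ± 0.84. At 24 h 2 of the 11 were called, both higher, Kdr at 2.21 ± 0.48 and Eng at 3.91 ± 0.85. The median of the 11 means was 0.007 at 4 h and 0.04 at 24 h, and the medians on the single arrays of 24 h were 0.59 and 0.49. Of 8 smooth muscle and pericyte markers Actg2 was called, higher at 4 h and lower at 24 h, with list medians of 0.04 and -0.13. Of 12 cardiomyocyte markers Ryr2 was called lower at 24 h, with list medians of -0.25 at 4 h and -0.09 at 24 h. Over all genes 3.25% were called at 4 h and 7.00% at 24 h. The part of these markers in the values of the basement membrane genes was not tested.

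**Figure D1:**
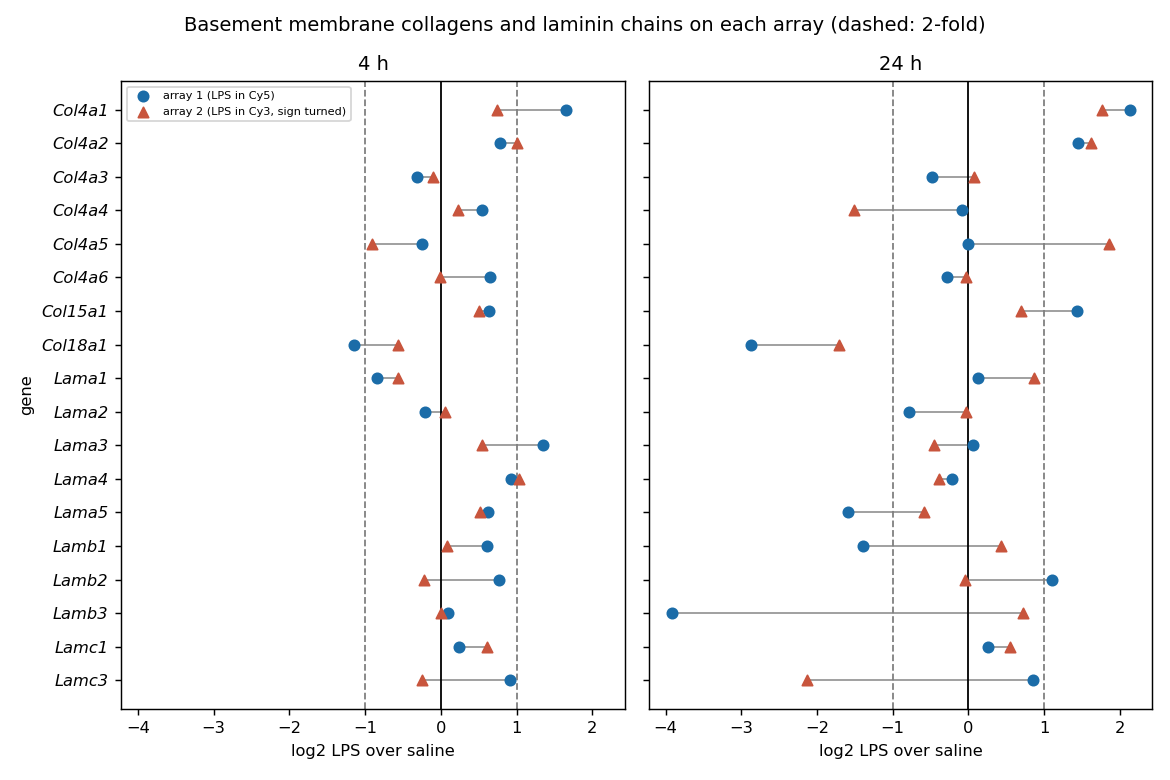
Log2 LPS over saline (x axis) of the 18 basement membrane genes (y axis) at 4 h and 24 h. Circles are array 1 (LPS in Cy5), triangles array 2 (LPS in Cy3, sign turned), grey lines join the 2 arrays and dashed lines mark 2-fold. Col4a1 and Col4a2 lie beyond 1 and Col18a1 beyond -1 on both arrays of 24 h.

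Of the 10 laminin chains none was called at either time. The alpha4 and alpha5 chains, encoded by Lama4 and Lama5, are those of the endothelial laminins. Lama4 stood at 0.93 and 1.03 on the arrays of 4 h, just short of the threshold, and at -0.21 and -0.39 at 24 h. Its means were 0.98 ± 0.07 and -0.30 ± 0.13, a difference of -1.28. Lama5 stood at 0.62 and 0.51 at 4 h and at -1.59 and -0.58 at 24 h, a difference of -1.65. For both genes the times did not overlap and lay on opposite sides of 0.

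The alpha3 chain Lama3, known from epithelial basement membranes, was at 1.34 and 0.54 at 4 h and at 0.07 and -0.46 at 24 h. Lama1, the alpha1 chain of early embryonic laminin, was at -0.84 and -0.56 and then at 0.13 and 0.87, the only laminin chain higher at 24 h than at 4 h by the criterion between times. Lama2, the alpha chain of muscle laminin, stood at -0.08 ± 0.19 at 4 h and -0.41 ± 0.54 at 24 h. The gamma1 chain Lamc1, shared by most laminins, stood at 0.43 ± 0.26 and 0.40 ± 0.20 and was above 0 on all 4 arrays. The beta1 chain Lamb1 was at 0.34 ± 0.37 and -0.48 ± 1.28, and the beta2 chain Lamb2 at 0.27 ± 0.70 and 0.53 ± 0.82. Lamb3 and Lamc3 had arrays far apart at 24 h, at -3.92 and 0.72 for Lamb3 and at 0.86 and -2.14 for Lamc3. For both of these the direction at 24 h cannot be given.

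Fibrillar collagens, which form the fibres of the interstitium, were mostly close to 0 at 4 h. The means of the 9 measured genes ran from -0.25 to 0.36. At 24 h they ran from -2.26 to 0.25, and 6 of the 9 genes were below 0 on both arrays, where 26.1% of all genes were. Col2a1, the cartilage collagen, was called lower, at -1.42 and -1.08 after 0.17 and -0.10 at 4 h. Its mean at 24 h was -1.25 ± 0.24. Col1a1, the main chain of type I collagen, was not called, at -3.84 and -0.69 at 24 h after 0.83 and -0.12 at 4 h. Both arrays of 24 h lay below both of 4 h. The 2 spots of Col1a1 on the first array of 4 h read 2.31 and -0.67. Col24a1, among the 6 below 0, was at -0.87 and -1.60 at 24 h. Its spots read 0.00 and -1.79 on the first array and 0.01 and -3.09 on the second, so both values rest on 1 spot. Col5a1 is also among the 6, with spots on both sides of 0 on each array of 24 h. Col3a1, which is co-expressed with type I collagen, was at -1.05 and 0.20, and Col5a1 and Col5a2 stood between -0.08 and 0.34 on all 4 arrays.

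Fibroblasts are the main source of fibrillar collagens, and the fibroblast markers were therefore read beside them. At 4 h 0 of 12 measured fibroblast markers were called. At 24 h 3 of 12 were called, where 7.00% of all genes were. All 3 were higher, Mgp at 1.80 ± 0.91, Vim at 2.04 ± 0.48 and Fstl1 at 1.32 ± 0.20. The markers not called went both ways, from Dpt at -1.02 ± 0.48 to Dcn at 1.14 ± 0.42. The median of the 12 means was 0.03 at 24 h. Their part in the values of the collagens was not tested.

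Of the 20 other collagens, 1 was called. Col9a2, a chain of the cartilage collagen IX, stood at -1.94 and -1.12 at 24 h, a mean of -1.53 ± 0.58. At 4 h it was at -1.72 and 0.07, so the arrays disagreed. The other chains of collagen IX, Col9a1 and Col9a3, were at 0.36 ± 1.48 and 0.03 ± 0.03 at 24 h. Col13a1, a transmembrane collagen, stood at -2.12 and -0.73 at 24 h after -0.02 and -0.38. Col16a1 stood at -2.37 and -0.90, but its 2 spots on the first array read 0.00 and -4.78. Col10a1, the collagen of hypertrophic cartilage, was at -0.52 and -0.68 at 4 h and at 0.65 and 0.70 at 24 h. The 4 collagen VI genes Col6a1, Col6a2, Col6a3 and Col6a4 were split between the arrays of 24 h, below 0 on the first and above 0 on the second.

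**Figure D2:**
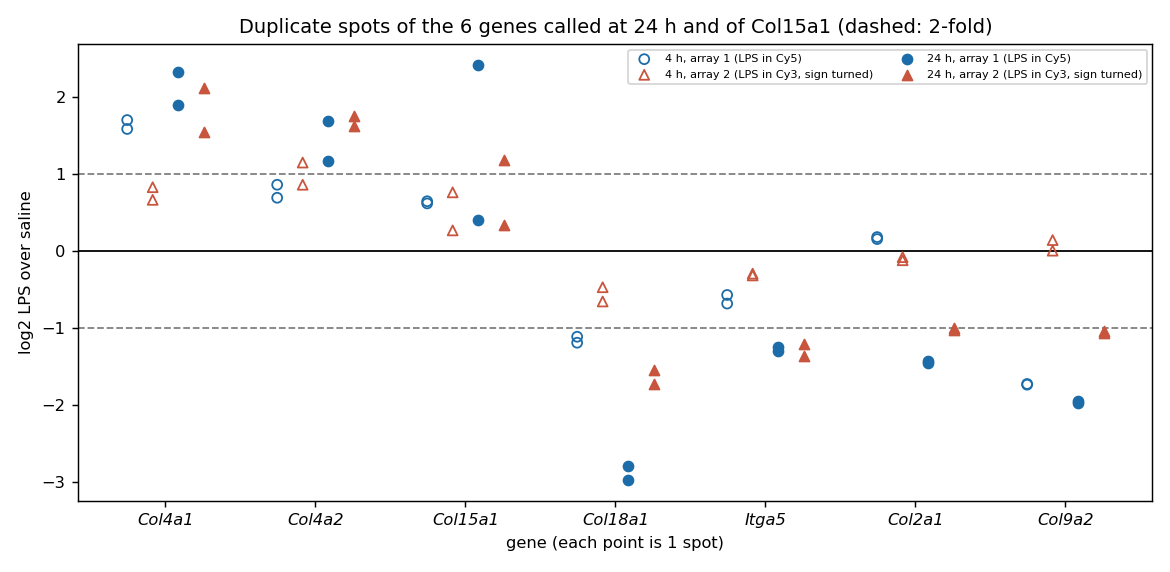
Log2 LPS over saline (y axis) of each spot of 7 genes (x axis), before centring, at 4 h (open) and 24 h (filled) on array 1 (circles) and array 2 (triangles, sign turned). Every spot of the 6 called genes lay at or beyond the dashed 2-fold lines at 24 h, and the spots of Col15a1 did not.

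The integrin alpha chains that bind matrix were represented by 9 genes. Itga5 stood at -0.62 and -0.31 at 4 h and at -1.26 and -1.35 at 24 h. All 4 arrays lay below 0 and those of 24 h below those of 4 h, with means of -0.47 ± 0.22 and -1.30 ± 0.07. The difference between the times was -0.84, under 2-fold. Itga6, a chain of the laminin receptors alpha6beta1 and alpha6beta4, was at -3.13 and -0.78 at 4 h and at 0.19 and -0.42 at 24 h. Its 2 oligonucleotides disagreed on the first array of 4 h, since the spots of one read -6.29 and -5.02 and those of the other -0.53 and -0.73. On the second array all 4 spots lay between -1.04 and -0.31. Itga3 and Itga7, also laminin receptor chains, were at 0.22 ± 0.59 and -0.07 ± 0.75 at 24 h. The 2 oligonucleotides of Itga7 disagreed at 24 h, so its mean gives no direction. The spots of one read -1.17 and -2.25 on the first array and -1.52 and -1.45 on the second. Those of the other read -0.42 and 1.33 on the first and 4.94 and 0.11 on the second.

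Each of the remaining alpha chains was split between the arrays at 1 or both times. Itga2, a collagen receptor chain, was at -0.32 and -0.72 at 4 h and at -5.93 and 0.31 at 24 h. Itga4, which pairs with beta1 to bind the endothelial ligand VCAM-1, was at -0.68 and 0.79, and Itgav, the chain of the vitronectin receptors, at -1.13 and 0.48. Itga8 was at 1.69 and -0.80 at 4 h, where the 2 spots of the first array read 3.55 and -0.19, and at -1.05 and -0.15 at 24 h. Itga2b, the platelet fibrinogen receptor chain, was at 2.76 and -0.79 at 4 h, where 1 spot read 5.49 and its duplicate 0.00, and at 0.03 and 0.48 at 24 h. Where the arrays were split, the values give no direction. The 6 platelet markers measured held 0 called genes at 4 h and at 24 h.

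None of the 5 beta chains of matrix receptors was called. Itgb1, the beta chain common to most collagen and laminin receptors, stood at 1.06 and 0.01 at 4 h and at 0.03 and -3.74 at 24 h. The direction at 24 h thus rests on 1 array. On the first array of 4 h the 2 spots of Itgb1 read 2.21 and -0.11. Itgb5 stood at -0.88 and -1.09 at 24 h, a mean of -0.99 ± 0.15, after 0.64 and -0.62. Its 2 spots on the first array of 4 h read -1.09 and 2.34. Itgb4, the hemidesmosome chain, was at -3.25 and 0.11 at 24 h and Itgb3, the partner of alphaV and of the platelet chain, at -0.34 and 1.28. Itgb6, an epithelial chain, was at -0.61 and -0.16 at 4 h and at 0.89 and 0.11 at 24 h.

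The leukocyte chains were measured in 6 genes, and none was called. Itgb2, the common beta2 chain of neutrophil and monocyte integrins, stood at 0.56 and 0.21 at 4 h and at 0.20 and 0.46 at 24 h, above 0 on all 4 arrays and under 2-fold on each. Its 4 spots were far apart, from -0.03 to 2.17 on the first array of 4 h and from -0.99 to 2.17 on the first array of 24 h, so the signs there rest on 1 spot. The 2 spots of one oligonucleotide had the same values, 2.17 and -0.03, on both of these arrays. Itgax was below 0 on all 4, from -0.92 to -0.18. Itgal, the alpha chain of LFA-1, was at -2.78 and 0.002 at 24 h. Beside these, 5 of 10 neutrophil markers were called at 24 h, S100a8, S100a9, Fpr2 and Lcn2 higher and Ngp lower, where 7.00% of all genes were called. The median of the 10 means was 0.10, with -0.73 on the first array and 0.94 on the second. Of 11 monocyte and macrophage markers 1, Coro1a, was called higher, while the median of the 11 means was -0.36. The part of these markers in the leukocyte integrin values was not tested.

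**Figure D3:**
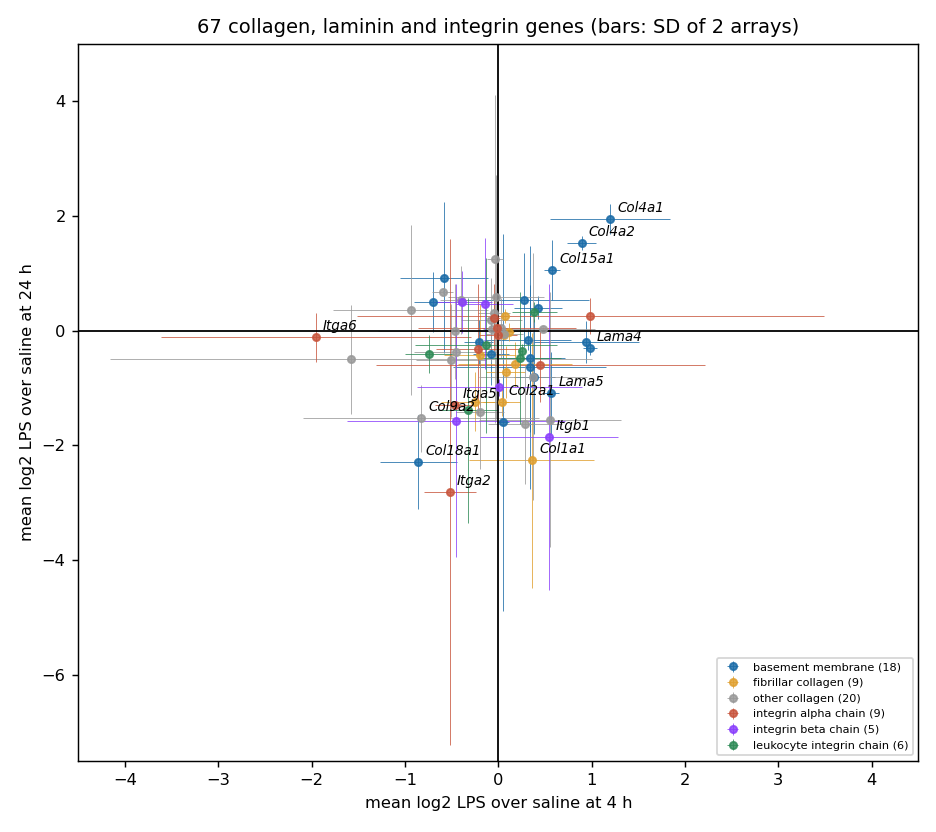
Mean log2 LPS over saline at 4 h (x axis) and 24 h (y axis) of the 67 members, coloured by class with the number of genes in brackets. Bars are the SD of 2 arrays. Col4a1, Col4a2 and Col15a1 lie at the upper right and Col18a1 at the lower left, and the long bars of Itga2 and Itgb1 at 24 h mark arrays that disagreed.

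Basement membrane and receptor genes were then compared as groups. At 4 h the median of the 18 basement membrane genes was 0.34 and that of the 20 integrins -0.09, a difference of 0.43. The difference was 0.96 on the first array and 0.15 on the second. Of the basement membrane genes, 9 of 18 were above 0 on both arrays of 4 h and 4 were below, where 24.3% and 25.6% of all genes were. Of the integrins, 3 of 20 were above and 7 below. At 24 h the medians were -0.20 and -0.34, a difference of 0.14, which was 0.60 on the first array and -0.09 on the second. The integrin median at 24 h was itself -0.64 on the first array and 0.11 on the second. The sign of the difference at 24 h therefore changed with the array. The median of the 29 collagens outside the basement membrane was -0.04 at 4 h and -0.08 at 24 h. No test was made of these group differences.

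Agreement between the arrays was also measured. Of the 67 members, 34 had the same sign on both arrays of 4 h and 36 on both of 24 h, where 49.9% and 52.3% of all genes did. The SD between the arrays was at least 1 for 6 members at 4 h and for 21 at 24 h. At 24 h 32 members were 2-fold on 1 array alone. In all 6 called members every spot of 24 h was at least 2-fold from 0.

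**Figure D4:**
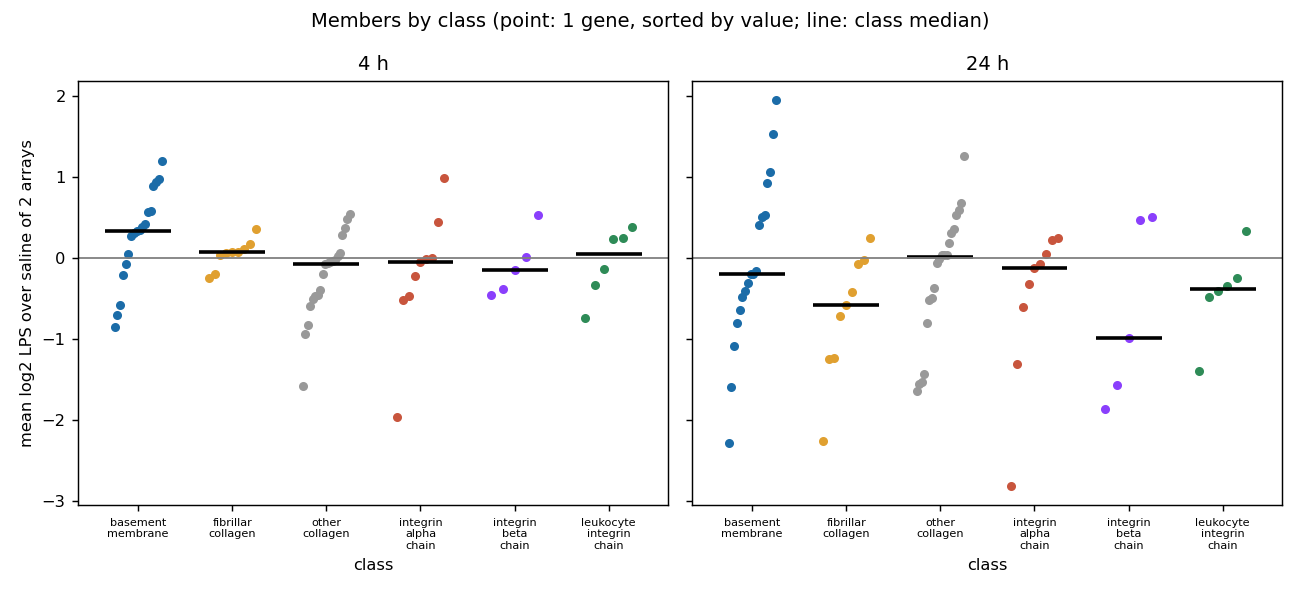
Mean log2 LPS over saline (y axis) of each gene by class (x axis) at 4 h and 24 h, points sorted by value and lines at the class medians. The basement membrane median is 0.34 at 4 h and -0.20 at 24 h, and its genes spread from -2.29 to 1.95 at 24 h.

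Between the times, a gene was taken to differ where the means were at least 2-fold apart and the ranges of the arrays did not overlap. By this criterion 13 members differed (19.4%, against 19.8% of all genes), 4 higher (5.97%, against 9.43%) and 9 lower at 24 h (13.4%, against 10.3%). The overall share was close to that of all genes. Higher at 24 h were Col4a5, Lama1, Col10a1 and Itga6. Of these, Col4a5 rests on 1 spot of the second array of 24 h. The 2 oligonucleotides of Itga6 and the 2 spots of Lama1 had opposite signs on the first array of 24 h. Lower were Col4a4, Col18a1, Lama3, Lama4, Lama5, Col1a1, Col2a1, Col13a1 and Col16a1. Basement membrane genes, 26.9% of the members, made up 7 of the 13, a difference that was not tested, among them 3 laminin alpha chains that were lower and 1 that was higher. Of the 13, Col18a1 and Col2a1 were also called at 24 h.

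Partners of the members were read from lists of matrix and adhesion genes. Of 12 basement membrane partners measured, Agrn, which encodes the heparan sulfate proteoglycan agrin, was called higher at 4 h, at 1.88 and 1.96, and stood at 1.45 and 0.78 at 24 h. Ntn4, a netrin that binds laminin, was called lower at 24 h, at -1.10 and -1.08. Chosen for their role after their values were seen, the nidogens Nid1 and Nid2, which link laminin to collagen IV, were at 0.88 ± 0.44 and 0.75 ± 0.12 at 24 h and were not called. At 4 h their arrays disagreed, at -2.85 and 0.26 for Nid1 and at -0.70 and 0.53 for Nid2. The median of the 12 was 0.10 at 4 h and 0.64 at 24 h, against -0.02 over all genes at each time.

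Receptor ligands, synthesis genes and signalling partners were counted against the same 3.25% and 7.00% of all genes called at 4 h and 24 h. Of 14 other integrin ligands Vcam1, the ligand of alpha4beta1, was called higher at 24 h, at 1.63 and 1.04, after 0.80 and 1.98 at 4 h. Of 17 genes of collagen synthesis 0 were called at either time. Of 12 other matrix receptors Cd36 was called higher at 24 h, at 4.28 and 2.65, and of 20 cytoplasmic partners of integrins Cav1, at 1.29 and 1.01.

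When the arrays were taken as separate samples in limma, 0 members had an adjusted p under 0.05 at 4 h, at 24 h or between the times. The same held for all named genes, with 0 of 11138 in each comparison. At an unadjusted p under 0.05 by limma there were 3 of 67 members at 4 h, 11 at 24 h and 2 between the times. Of all 11138 genes, 475, 1126 and 638 were under it. The smallest adjusted p of a member at 24 h by limma was 0.391, shared by Col18a1, Col4a1 and Col4a2. This fit treats the arrays as separate extracts, which the labels do not state.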

How the data were processed

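The deposited table held log2 ratios of the 2 channels for 32448 spots on each of 4 arrays, and the sources used here name no background correction, dye normalization or spot filter. Without intensities, dim and bright spots look alike, and precision is limited by the number of arrays. Ratios of exactly 1 made up 10.2% to 13.4% of an array's spots. Per the labels, LPS was in Cy5 on array 1 and in Cy3 on array 2, so the sign of array 2 was turned. Over all spots the deposited values of the 2 arrays correlated at -0.056 at 4 h and -0.064 at 24 h. Over oligonucleotides whose 2 spots lay within 0.5 log2 units on both arrays they correlated at -0.37 (5023 oligonucleotides) and -0.50 (3668 oligonucleotides). Among those 2-fold on both arrays, the deposited signs were opposite in 180 of 186 at 4 h and in 435 of 458 at 24 h. Adjacent duplicate spots were averaged, then the oligonucleotides naming one gene. The median over all genes was subtracted from each array. Spots with 1 symbol in the platform annotation were used (24344 spots), and all 67 members matched RefSeq by gene identifier. Of the members 3 had 2 oligonucleotides. The members and lists were chosen with earlier results of these data known. The rule for named genes took every called, basement membrane and time-separated member, class extremes and called partners. Further members, named for their role, and those followed to single spots were chosen after their values were seen. Partner lists were matched through older symbols where needed. The call rule and limma 3.58.1 were tried on shuffled arrays with planted shifts. Those shifts were larger than the values of the called members, so the trials do not cover effects of that size. Python 3.11.15 was used.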

Additional observations from a re-analysis of the deposited data

Results flagged for a closer look

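For 10 members both arrays of 4 h lay on one side of 0 and both of 24 h on the other (14.9%, against 12.3% of all genes), and the differences were tested only in limma with the arrays as separate samples, where the smallest adjusted p among these 10 was 0.804. Means at 24 h minus means at 4 h were -1.65 for Lama5, -1.28 for Lama4, -1.18 for Col4a4, -0.60 for Itgb2l and -0.14 for Col5a1, which were above 0 at 4 h. They were 1.51 for Col4a5, 1.27 for Col10a1, 1.20 for Lama1, 0.93 for Col19a1 and 0.89 for Itgb6, which were below 0 at 4 h. The Col4a5 difference rests on 1 spot of the second array of 24 h. The places of Col4a5 and Col5a1 among the 10 also rest on the centring of the arrays. Before it, the Col4a5 spots on the first array of 24 h read 0.00 and -0.04. Those of Col5a1 on the first array of 4 h read 0.08 and -0.10. Duplicate spots of opposite sign also stood on the first array of 24 h for Lama1 (-0.52 and 0.73), Col4a4 (-0.46 and 0.24) and Col19a1 (-0.43 and 0.62). On the second array of 24 h the spots of Itgb6 read -0.01 and 0.37.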

How the results depend on the processing

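Col4a1, Col4a2 and Col18a1 stayed called at 24 h without centring, with quantile or scale normalization, without ratios of exactly 1, with medians over spots and where every spot had to be 2-fold. Itga5 and Col2a1 were lost with quantile normalization, and with scale normalization Col9a2 was lost too, leaving 2 and 1 members lower against 4. With no sign turned, 0 members were higher and 0 lower at 24 h, Col4a2 stood at -0.0858 and Itga5 at 0.0478, and the basement membrane median at -0.13. Among oligonucleotides with agreeing spots, which kept 22 members at 24 h and 39 at 4 h, 0 were higher at 24 h, since spots of Col4a1 and Col4a2 lay over 0.5 apart, the basement membrane median was -0.44 and 4 members differed between the times. At 1.5-fold, 4 members were higher and 9 lower at 24 h, where 932 and 876 of all 11138 genes were. At 4 h 3 members were higher and 1 lower at 1.5-fold, where 550 and 391 of all genes were. With limma 0 members were higher and 0 lower. At 4 h quantile normalization called Col4a1 and Itga6, 1 higher and 1 lower, and scale normalization also Lama4, 2 higher and 1 lower. Over all genes quantile normalization called 328 higher and 233 lower at 4 h. With 1 array of each time left out, 5 to 6 members were higher and 11 to 22 lower at 24 h, and 3 to 5 higher and 0 to 7 lower at 4 h. Between the times 22 to 25 members then differed. Genes other than the members were not counted on 1 array alone, so these counts have no background. The basement membrane median was then 0.067 to 0.614 at 4 h and -0.045 to 0.025 at 24 h, and the integrin median -0.344 to -0.0838 at 4 h and -0.645 to 0.113 at 24 h. The basement membrane minus integrin median at 24 h was -0.09 on array 2 alone. Scale normalization called 347 genes higher and 210 lower at 4 h and 212 and 212 at 24 h, where 251 and 111, and 388 and 392, were called without it. The cause of these changes was not tested. Of the 111 alternative values of counts and medians, 81 stayed within 1.5 times or the array SD. That SD grows as the arrays disagree, so a median could change sign and still be counted as staying. The integrin median at 24 h did so, at -0.34 with both arrays and 0.11 on array 2 alone. The basement membrane minus integrin median at 24 h did so too, at 0.14 and -0.09. The 81 values are therefore no measure of stability. No paired analysis was possible because each time had 2 arrays that were counted as 1 replicate.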
